A study of Mus musculus with 11 samples.

Results

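The genes described here encode the substrate adaptors of 2 classes of cullin-RING ubiquitin ligase, namely the Asb, Klhl and Kbtbd genes of the mouse. They were taken from the deposited count table as every protein-coding gene whose symbol is Asb, Klhl or Kbtbd followed by a number, which gave 63 of 55385 genes: 18 Asb, 36 Klhl and 9 Kbtbd genes. The rule itself uses symbols and gene type, not measured values. The long non-coding RNAs Asb17os and Kbtbd8os carry such names and were left out by their type. RNA was sequenced from whole gastrocnemius, a mixed-fibre calf muscle, taken from mice fasted for 36 h, and each library held RNA pooled from 2 mice. The 4 groups were ZEB1 knockout (ZEB1 flx/flx with HSA-Cre, 3 pools), ZEB1 control (ZEB1 flx/flx without Cre, 2 pools numbered 2 and 3), ZEB2 knockout (ZEB2 flx/flx with HSA-Cre, 3 pools) and ZEB2 control (ZEB2 flx/flx without Cre, 3 pools). HSA-Cre is a recombinase under the skeletal actin promoter, active in myofibres and not in the other cells of the muscle. No group carried Cre without floxed alleles, so loss of either ZEB gene and presence of Cre cannot be told apart, and all 4 groups were fasted, so no fed level stands beside the values. The design sets muscle with loss of the zinc-finger repressor ZEB1 or ZEB2 in myofibres against floxed muscle, and the adaptor genes are described within it.

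Cullin-RING ligases attach ubiquitin to proteins that an exchangeable adaptor brings in. Asb proteins bind their substrates through ankyrin repeats and dock onto CUL5 through a SOCS box and the elongin B and C proteins, whereas Klhl and Kbtbd proteins dock onto CUL3 through a BTB domain and bind substrates through Kelch repeats. Several are enriched in striated muscle, and mutations of KLHL40, KLHL41 and KBTBD13 cause nemaline myopathy in humans, a disease of the thin filament.

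Total counts ran from 27286288 to 46259639 per library, and the adaptor genes took 0.310% to 0.384% of them. The targeted genes were set beside the group labels. Zeb1 stood at 28.4, 28.6 and 30.4 CPM (read counts normalised to library size, TMM-scaled) in ZEB1 knockouts, against 41.2 and 51.1 CPM in ZEB1 controls, and Zeb2 at 18.3, 14.4 and 17.7 CPM in ZEB2 knockouts, against 24.1, 23.1 and 25.8 CPM in ZEB2 controls. In its own line Zeb1 had a log2 fold change of -0.67 (SE 0.15, edgeR adjusted p = 0.800). Zeb2 had -0.53 in its own line (SE 0.13, edgeR adjusted p = 0.0775), so neither passed in edgeR. Which cells of the muscle the lower values came from was not tested. Zeb1 was also higher in every ZEB2 knockout pool, at 67.2, 60.2 and 76.0 CPM, against 47.7, 52.1 and 43.7 CPM in ZEB2 controls. Summed CPM of 10 myofibre markers lay between 96546 and 122483 in every library. In bulk muscle, fewer cells of a type and less RNA per cell cannot be told apart. The labels do not say how the pooled mice were related, and a p-value here speaks only of pool-to-pool spread, which may be partly technical.

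Promoters of 4 adaptor genes are shown because the results below turn on them: Klhl40 was the adaptor gene whose knockout effects differed most clearly between the lines, Klhl41 and Kbtbd13 encode the other adaptors of the nemaline myopathy group, and Kbtbd12 differed between the lines themselves. Sequences are from RefSeq (GRCm38.p6), 250 bases before to 50 after the annotated start, read 5′ to 3′ on the strand of the gene. Capitals mark CACCTG or its reverse complement CAGGTG, the E-box that ZEB factors are known to bind.
Klhl40 (chr9:121777357-121777656, plus strand): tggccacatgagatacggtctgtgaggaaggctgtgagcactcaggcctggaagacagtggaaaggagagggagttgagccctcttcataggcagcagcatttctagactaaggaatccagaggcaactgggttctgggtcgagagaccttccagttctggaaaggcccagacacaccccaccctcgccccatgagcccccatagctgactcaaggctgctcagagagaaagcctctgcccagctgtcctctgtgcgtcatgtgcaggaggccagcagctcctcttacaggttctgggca
Klhl41 (chr2:69669870-69670169, plus strand): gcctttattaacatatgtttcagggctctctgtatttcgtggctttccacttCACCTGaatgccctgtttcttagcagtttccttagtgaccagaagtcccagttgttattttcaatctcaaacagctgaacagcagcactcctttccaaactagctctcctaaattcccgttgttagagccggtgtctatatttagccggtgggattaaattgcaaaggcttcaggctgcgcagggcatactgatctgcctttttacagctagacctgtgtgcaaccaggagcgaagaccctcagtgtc
Kbtbd13 (chr9:65391603-65391902, minus strand): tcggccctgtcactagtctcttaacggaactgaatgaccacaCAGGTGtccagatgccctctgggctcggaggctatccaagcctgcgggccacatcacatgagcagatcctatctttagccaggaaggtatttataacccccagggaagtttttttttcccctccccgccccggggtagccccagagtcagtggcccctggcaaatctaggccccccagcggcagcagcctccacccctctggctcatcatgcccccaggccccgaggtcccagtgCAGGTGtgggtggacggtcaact
Kbtbd12 (chr6:88627380-88627679, minus strand): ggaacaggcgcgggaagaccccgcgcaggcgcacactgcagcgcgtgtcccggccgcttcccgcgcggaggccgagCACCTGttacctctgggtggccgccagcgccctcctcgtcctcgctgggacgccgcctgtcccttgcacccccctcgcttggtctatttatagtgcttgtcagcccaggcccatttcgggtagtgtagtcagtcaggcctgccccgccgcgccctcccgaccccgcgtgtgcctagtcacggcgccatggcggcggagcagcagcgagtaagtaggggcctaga

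The Klhl40 window held no such box. Positions are those of the first base of the box, counted without a 0, with the start base as the first positive position. Klhl41 had a box at -198, Kbtbd12 at -174, and Kbtbd13 at -208 and at 28. Of 63 adaptor genes 54 had a promoter that was used, with 72 windows, since 13 genes had several. Any adaptor window on chromosome 18, where Klhl14 lies, was left out, while the set of all windows had no such limit. The box stood on either strand in 12 of those 72 windows (16.7%), from 11 genes, against 20.2% of all 32851 windows of 300 bases. The wider E-box CANNTG, which includes the ZEB box, stood in 65.3% of adaptor windows against 72.3% of all. The FoxO element GTAAACA or TGTTTAC, searched on both strands, stood in 2.78% against 3.65%. A match is a stretch of letters, and binding was not measured.

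The adaptor pool of fasting gastrocnemius was dominated by a few muscle genes. At 100 CPM or more stood 7 of the 63 genes, 27 stood from 10 to under 100, 21 from 1 to under 10, and 8 were under 1 CPM. The 4 genes highest by CPM held 42.0% of the summed adaptor CPM, and the 8 highest held 67.1%. Adjusted for exon length, the order over 11 pools was led by Asb5, an Asb gene known from skeletal muscle, at a mean of 203 CPM per kb (lowest pool 125, highest 347). Klhl41, a Kelch protein that stabilises nebulin, followed at 159 CPM per kb (124 to 189), then Asb11 at 120.4 CPM per kb (58.4 to 192) and Asb2, which targets filamins for breakdown, at 104 CPM per kb (56.4 to 159). The ranges of these 4 genes over pools overlapped, and the order given is that of the means.

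A second tier lay lower. Klhl21, a CUL3 adaptor known from mitotic Aurora B regulation, averaged 66.2 CPM per kb, and Klhl38 42.6. Asb8 (32.2), Klhl24 (32.1), Asb14 (31.7), Klhl31 (31.0) and Klhl40 (29.6 CPM per kb) stood closer together than the range of any of them over pools. Klhl31 regulates filamin C in the mouse, and Klhl40 stabilises nebulin and leiomodin 3. Pool by pool, Klhl38 stood at 127, 76.4 and 118 CPM in ZEB1 knockouts, against 74.98 and 94.5 CPM in ZEB1 controls, with 79.8, 85.6 and 135 CPM in ZEB2 knockouts, against 118, 78.3 and 50.3 CPM in ZEB2 controls. Klhl24, whose human counterpart is mutated in a skin fragility disease of keratin 14, stood at 388, 288 and 315 CPM in ZEB1 knockouts, against 284 and 374 CPM in ZEB1 controls, with 332, 332 and 465 CPM in ZEB2 knockouts, against 302, 291 and 225 CPM in ZEB2 controls. Its lowest pool was ZEB2 control 3, as it was for Klhl38. Asb8 stood at 80.3, 87.02 and 95.8 CPM in ZEB1 knockouts, against 83.2 and 73.5 CPM in ZEB1 controls, with 77.5, 67.3 and 60.3 CPM in ZEB2 knockouts, against 88.5, 68.5 and 72.7 CPM in ZEB2 controls. Asb14 stood at 74.8, 111 and 57.8 CPM in ZEB1 knockouts, against 98.4 and 80.1 CPM in ZEB1 controls, with 78.6, 74.4 and 64.4 CPM in ZEB2 knockouts, against 91.8, 80.2 and 77.2 CPM in ZEB2 controls. In both of these Asb genes the groups of each line overlapped. Kbtbd genes summed to less than the other families, at 79.5 to 183 CPM per library, against 1276 to 1774 CPM for Asb and 1630 to 2177 CPM for Klhl genes.

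**Figure D1:**
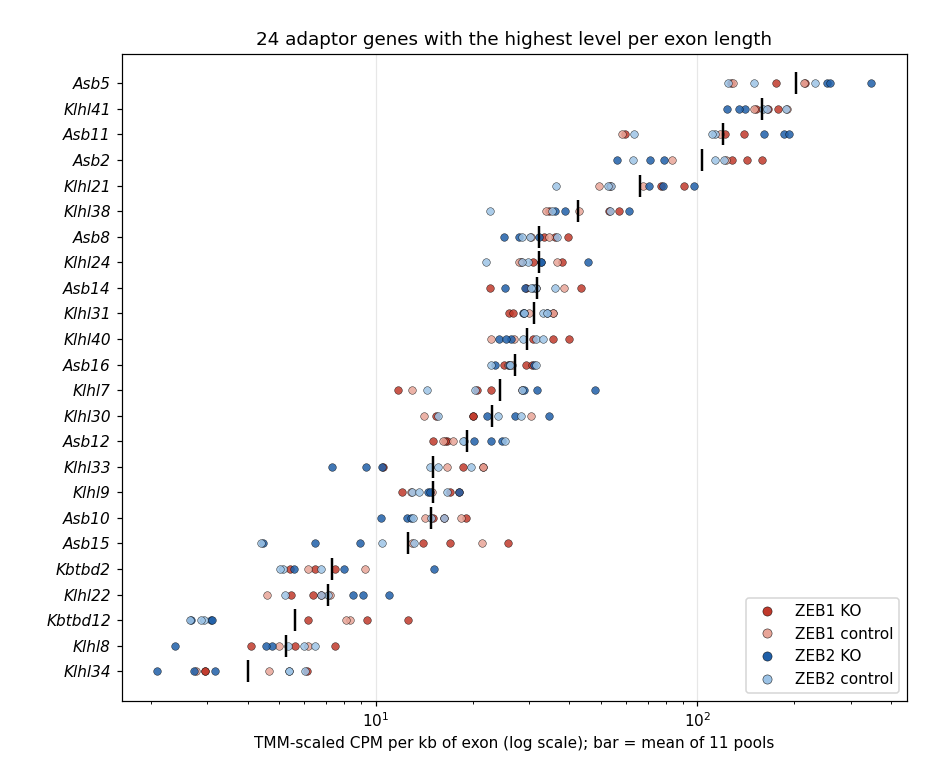
Level of the 24 adaptor genes highest by exon length, as TMM-scaled CPM per kb of exon on a log axis. Each point is a pool of 2 mice coloured by group, and the bar is the mean of 11 pools. Asb5, Klhl41, Asb11 and Asb2 lead at means of 104 to 203 CPM per kb, and Kbtbd12 splits by line.

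At the other end, Asb9 and Klhl1 had a count of 0 in every library, which allows up to 0.00810 CPM over all libraries (3 counts of the total, counting error only). Klhl14 had 3 counts in all, Klhl35 5, Kbtbd6 6, Klhl32 9, Asb17, a testis Asb gene, 20 and Klhl10, a testis Kelch gene, 38. These 8 genes were not tested, which left 55 of 63 adaptor genes (16 Asb, 31 Klhl and 8 Kbtbd) among the 15416 genes tested. Neighbouring adaptor genes differed widely in level. Asb9 at 0 lies 47.2 kb from Asb11 at a mean of 343 CPM on chromosome X, Kbtbd6 at 0.0158 CPM lies 20.8 kb from its close paralog Kbtbd7 at 8.89 CPM on chromosome 14, and Klhl6 at 1.76 CPM lies 115 kb from Klhl24 at 327 CPM on chromosome 16. Klhl41 at 401 CPM and Klhl23 at 14.1 CPM are 138 kb apart on chromosome 2. Counts of close paralogs (Klhl9 and Klhl13, Kbtbd6 and Kbtbd7) may be divided uncertainly between copies, and 14 adaptor genes share exon sequence with another gene, 3 of them on the same strand (Asb3 with Gpr75, Klhl13 with Gm14523, Klhl15 with Mir7673).

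ZEB1 knockouts differed little from ZEB1 controls in adaptor expression. Of 55 adaptor genes 24 were higher and 31 were lower, and the median log2 fold change was -0.040, against 0.0069 over all genes tested. Without scaling of the totals 18 rather than 24 were higher, as the share of all genes higher was 41.8% rather than 51.2%. None passed the edgeR quasi-likelihood test at a Benjamini-Hochberg adjusted p of 0.05 (0 of 55, where the rate over all genes was 0%). At an unadjusted p under 0.05, 1 adaptor gene was higher, against 1.64% of all genes, and 0 were lower, against 1.6%. DESeq2 called 0 adaptor genes and 0.136% of all genes. All knockout pools lay above both control pools for 3 adaptor genes (7.19% of all genes) and below both for 4 (6.69% of all genes), shares of 5.45% and 7.27% of the adaptor genes, near those of all genes.

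The gene with the smallest p was Klhl40 (ENSMUSG00000074001.3, GRCm38 chromosome 9, 121777607 to 121783818, plus strand). It stood at 89.1, 77.4 and 99.6 CPM in ZEB1 knockouts, against 57.1 and 67.4 CPM in ZEB1 controls. Every knockout pool was above both control pools, and the log2 fold change was 0.51 ± 0.15 (SE; edgeR, unadjusted p = 0.00603, adjusted p = 0.9998). Its exons overlap the antisense model Gm47108, and the strand setting of the counting is not given in the sources used here. Asb2 was likewise above both controls in every knockout pool, at 505, 562 and 455 CPM against 433 and 295 CPM in ZEB1 controls, a log2 fold change of 0.48 ± 0.27 (SE) that was 0.22 without ZEB1 control 3 and 0.77 without ZEB1 control 2. The third gene with separated groups on the higher side, Klhl36, was low, at 1.56, 1.38 and 1.10 CPM in ZEB1 knockouts against 1.02 and 1.01 CPM in ZEB1 controls.

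On the lower side, Klhl4 stood at 1.82, 1.67 and 1.68 CPM in ZEB1 knockouts, against 2.53 and 2.38 CPM in ZEB1 controls (log2 fold change -0.51, SE 0.24). Klhl23, Klhl6 and Klhl15 were the other genes with separated groups. Klhl23 stood at 11.8, 11.5 and 12.2 CPM in ZEB1 knockouts, against 16.4 and 13.4 CPM in ZEB1 controls (log2 fold change -0.33, SE 0.25, and -0.19 without ZEB1 control 2). Asb18 had the largest negative fold change, -0.80, but an SE of 0.57: its knockout pools spread over 4.51, 22.1 and 11.6 CPM in ZEB1 knockouts, against 26.0 and 18.2 CPM in ZEB1 controls, so the groups overlapped. Its value was -0.40 without ZEB1 knockout 1 and -1.46 without ZEB1 knockout 2. The next genes by p had overlapping groups and values that moved when single pools were left out. Kbtbd11 stood at 2.86, 1.64 and 1.16 CPM in ZEB1 knockouts, against 2.07 and 3.25 CPM in ZEB1 controls (log2 fold change -0.50, SE 0.35), a value of -0.15 without ZEB1 control 3 and -0.93 without ZEB1 knockout 1. Klhl42, an adaptor for katanin, stood at 2.34, 4.64 and 3.16 CPM in ZEB1 knockouts, against 5.29 and 3.71 CPM in ZEB1 controls (-0.41, SE 0.30), with -0.15 when ZEB1 control 2 was left out. Klhl21 stood at 361, 213 and 306 CPM in ZEB1 knockouts, against 197 and 270.2 CPM in ZEB1 controls (0.33, SE 0.26, and 0.10 without ZEB1 control 2) and Klhl18, an adaptor for Aurora A, at 9.38, 7.28 and 10.9 CPM in ZEB1 knockouts, against 8.58 and 7.24 CPM in ZEB1 controls (0.22, SE 0.19, and 0.07 without ZEB1 knockout 3). Klhl41 stood at 385, 449 and 418 CPM in ZEB1 knockouts, against 479 and 379 CPM in ZEB1 controls and Klhl33 at 117, 136 and 66.4 CPM in ZEB1 knockouts, against 136 and 105 CPM in ZEB1 controls, also overlapping.

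Connective tissue markers were lower in the ZEB1 contrast, for 10 of 10 fibroblast genes (summed range 1611 to 2253 CPM in ZEB1 knockouts, against 2607 to 2611 CPM in ZEB1 controls) and 8 of 8 tendon genes (44.9 to 57.4 CPM against 100.5 to 112.0 CPM). Schwann markers were lower for 8 of 8 (90.3 to 307 CPM against 232 to 374 CPM), macrophage markers for 8 of 10 (130.1 to 197 CPM against 188 to 209 CPM), endothelial markers for 7 of 10 (484 to 611 CPM against 550.2 to 619 CPM) and adipocyte markers for 6 of 8 (278 to 349 CPM against 249.2 to 444 CPM), with ZEB1 knockouts before ZEB1 controls. Smooth muscle markers were higher for 6 of 9 (506 to 664 CPM against 541 to 586 CPM), and for 4 of 9 under upper-quartile scaling. The part of these cell types in the adaptor values was not tested. Y-linked genes (Ddx3y, Eif2s3y, Kdm5d and Uty) summed to 0, 0 and 210 CPM in ZEB1 knockouts, against 0 and 163 CPM in ZEB1 controls.

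ZEB2 knockouts differed from ZEB2 controls in more adaptor genes, in both directions. Asb6, Asb11, Klhl21, Klhl7, Asb5, Kbtbd2, Klhl2 and Klhl22 were higher by about 1.5-fold or more. Kbtbd13, Asb18, Klhl23, Klhl34, Klhl25, Klhl13, Klhl33, Kbtbd3, Klhl42, Klhl6, Kbtbd8 and Klhl8 were lower by as much. Of these genes Kbtbd2, Kbtbd13 and Kbtbd8 had overlapping groups. The edgeR test called 0 of 55 adaptor genes, as it called 0% of all genes, and the smallest adjusted p among adaptor genes was 0.0775. At an unadjusted p under 0.05, 9 adaptor genes (16.4%) were higher, against 15.9% of all genes, and 16 (29.1%) were lower, against 17.3%. DESeq2 called 6 higher (10.9%, against 9.08% of all genes) and 8 lower (14.5%, against 7.7%). Knockout pools lay wholly above control pools for 11 adaptor genes (20.0%, against 21.3% of all genes) and wholly below for 19 (34.5%, against 22.1%). The higher shares were thus near those of all genes, and the lower shares were above them, a difference that was not tested. The median was -0.122 over adaptor genes and -0.047 over all genes tested. Without ZEB2 control 3 the adaptor median was -0.053, and upper-quartile scaling moved both medians, to -0.260 and -0.177.

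**Figure D2:**
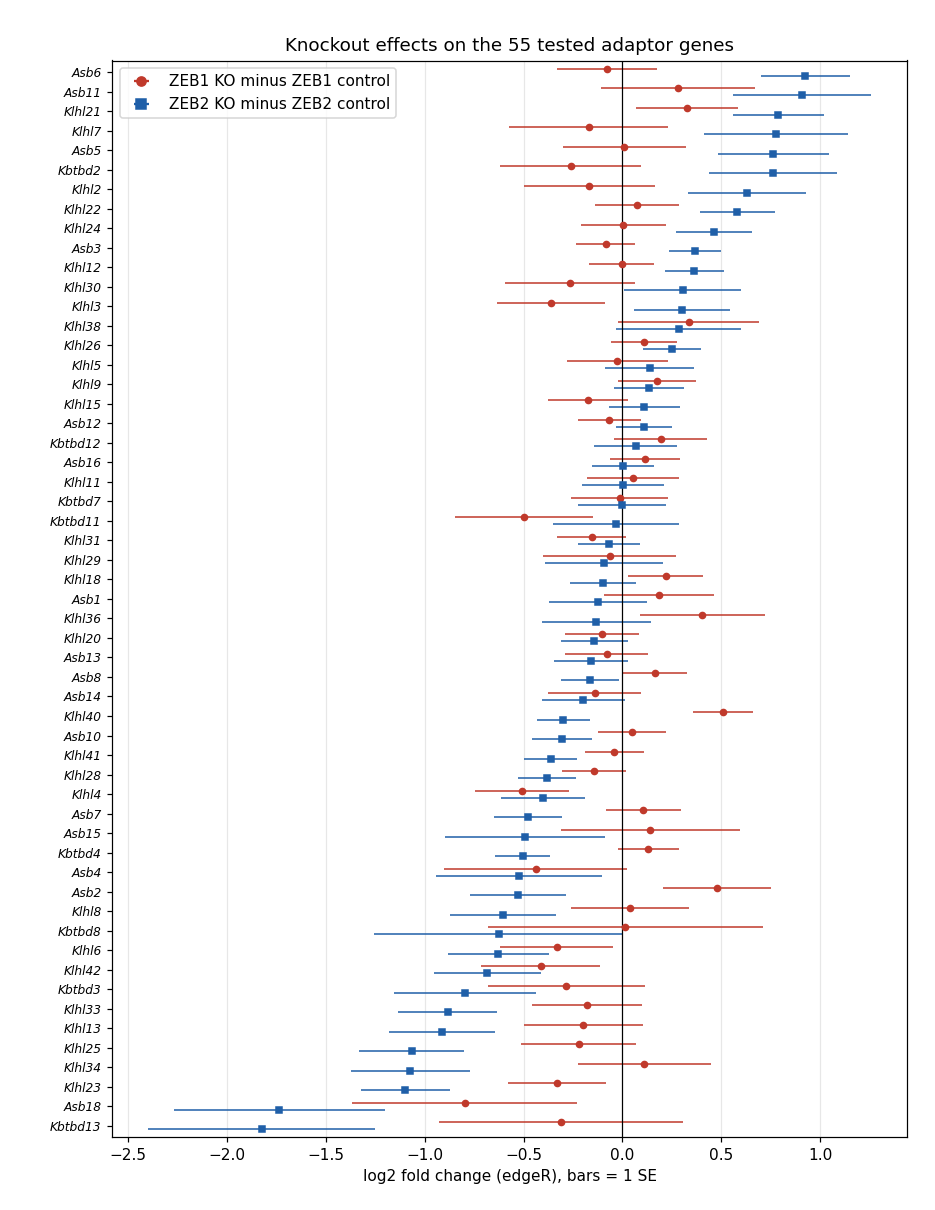
Log2 fold change of the 55 tested adaptor genes in ZEB1 knockouts against ZEB1 controls (red circles) and in ZEB2 knockouts against ZEB2 controls (blue squares), with bars of 1 SE (edgeR fit). Genes run from the highest ZEB2 fold change, Asb6 at 0.93, to the lowest, Kbtbd13 at -1.82, while most ZEB1 values lie within 1 or 2 SE of 0 and Klhl40 at 0.51 has the smallest p.

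Among the lower genes, Klhl23 (ENSMUSG00000042155.3, chromosome 2, 69821944 to 69836651, plus strand) had the smallest p. It stood at 10.5, 11.3 and 6.79 CPM in ZEB2 knockouts, against 14.8, 21.2 and 25.5 CPM in ZEB2 controls, with no overlap. The log2 fold change was -1.10 ± 0.23 (SE; edgeR adjusted p = 0.0775, DESeq2 adjusted p = 0.00207). Klhl33 (chromosome 14) stood at 66.05, 58.8 and 46.3 CPM in ZEB2 knockouts, against 124, 92.7 and 98.7 CPM in ZEB2 controls. Its groups did not overlap (log2 fold change -0.88, SE 0.25). Klhl34, on chromosome X, stood at 5.26, 6.12 and 4.05 CPM in ZEB2 knockouts, against 10.4, 10.4 and 11.7 CPM in ZEB2 controls (log2 fold change -1.07, SE 0.30). Klhl25, an adaptor known to act on the translation repressor 4E-BP1, stood at 1.94, 1.91 and 1.44 CPM in ZEB2 knockouts, against 2.91, 3.54 and 4.63 CPM in ZEB2 controls (log2 fold change -1.07, SE 0.26). Kbtbd4, an adaptor linked to CoREST complexes, stood at 10.5, 9.13 and 8.81 CPM in ZEB2 knockouts, against 13.8, 12.5 and 14.1 CPM in ZEB2 controls (log2 fold change -0.50, SE 0.14). The groups of these 3 genes did not overlap, and the exons of Kbtbd4 overlap Ndufs3 and Ptpmt1 on the opposite strand.

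The largest fold changes belonged to genes with wide spread between pools. Kbtbd13 stood at 2.72, 7.41 and 1.55 CPM in ZEB2 knockouts, against 6.80, 15.5 and 19.4 CPM in ZEB2 controls. The groups overlapped, and the log2 fold change was -1.82 ± 0.57 (SE; edgeR adjusted p = 0.0893, DESeq2 adjusted p = 0.0118). Asb18 stood at 8.60, 8.05 and 2.87 CPM in ZEB2 knockouts, against 24.7, 16.7 and 23.7 CPM in ZEB2 controls, without overlap (-1.74, SE 0.53). Both were lowest in the third knockout pool.

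The other nemaline myopathy adaptors were lower by less. Klhl41 stood at 355, 340 and 313 CPM in ZEB2 knockouts, against 476, 404 and 416 CPM in ZEB2 controls, a log2 fold change of -0.36 ± 0.14 (SE). Klhl40 stood at 66.0, 60.3 and 63.4 CPM in ZEB2 knockouts, against 71.9, 78.5 and 82.7 CPM in ZEB2 controls, a log2 fold change of -0.30 ± 0.13 (SE). In both genes all knockout pools lay below all controls, and neither passed (edgeR adjusted p = 0.106 and 0.146). Asb2 stood at 252, 279 and 199.8 CPM in ZEB2 knockouts, against 224, 403 and 428 CPM in ZEB2 controls (log2 fold change -0.53, SE 0.24), with overlapping groups. Of 18 known substrates and partners 11 were higher and 7 lower (median 0.055, and -0.080 under upper-quartile scaling). Neb, the thin-filament ruler nebulin, had -0.43 (SE 0.12), Lmod3, leiomodin 3, -1.36 (SE 0.39), and Flna, filamin A, -0.60 (SE 0.15). None passed in edgeR (adjusted p = 0.0793, 0.0824 and 0.0775), while DESeq2 called these 3 (adjusted p = 0.0245, 0.0105 and 0.0110). In the whole list of 18, DESeq2 called 1 gene higher and 4 lower, where it called 9.08% of all genes higher and 7.7% lower.

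Among the higher genes, Asb6 (ENSMUSG00000039483.10, chromosome 2, 30823097 to 30830333, minus strand), an adaptor known to bind the insulin-receptor substrate APS, had the smallest p. It stood at 15.3, 18.6 and 28.01 CPM in ZEB2 knockouts, against 9.83, 11.9 and 10.8 CPM in ZEB2 controls, a log2 fold change of 0.93 ± 0.23 (SE; edgeR adjusted p = 0.0775, DESeq2 adjusted p = 0.00766). Klhl21 stood at 313, 282 and 390.1 CPM in ZEB2 knockouts, against 215, 210.0 and 145 CPM in ZEB2 controls (0.79, SE 0.23). Groups did not overlap in either gene. Asb11 stood at 529.8, 460.1 and 548 CPM in ZEB2 knockouts, against 322, 316 and 181 CPM in ZEB2 controls (0.91, SE 0.35). Asb5 stood at 465, 478 and 639 CPM in ZEB2 knockouts, against 276, 427 and 229.6 CPM in ZEB2 controls (0.76, SE 0.28). The 2 muscle Asb genes highest per length were thus both higher in every ZEB2 knockout pool, and DESeq2 called both (adjusted p = 0.0447 and 0.0471). Klhl22, an adaptor for the kinase PLK1, stood at 47.8, 44.6 and 57.4 CPM in ZEB2 knockouts, against 37.2, 35.5 and 27.4 CPM in ZEB2 controls (0.58, SE 0.19). Asb3, known to act on the TNF receptor TNFR2, stood at 10.2, 10.6 and 10.9 CPM in ZEB2 knockouts, against 8.97, 8.28 and 7.32 CPM in ZEB2 controls (0.37, SE 0.13), again with separated groups, and its exons overlap Gpr75 on the same strand.

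**Figure D3:**
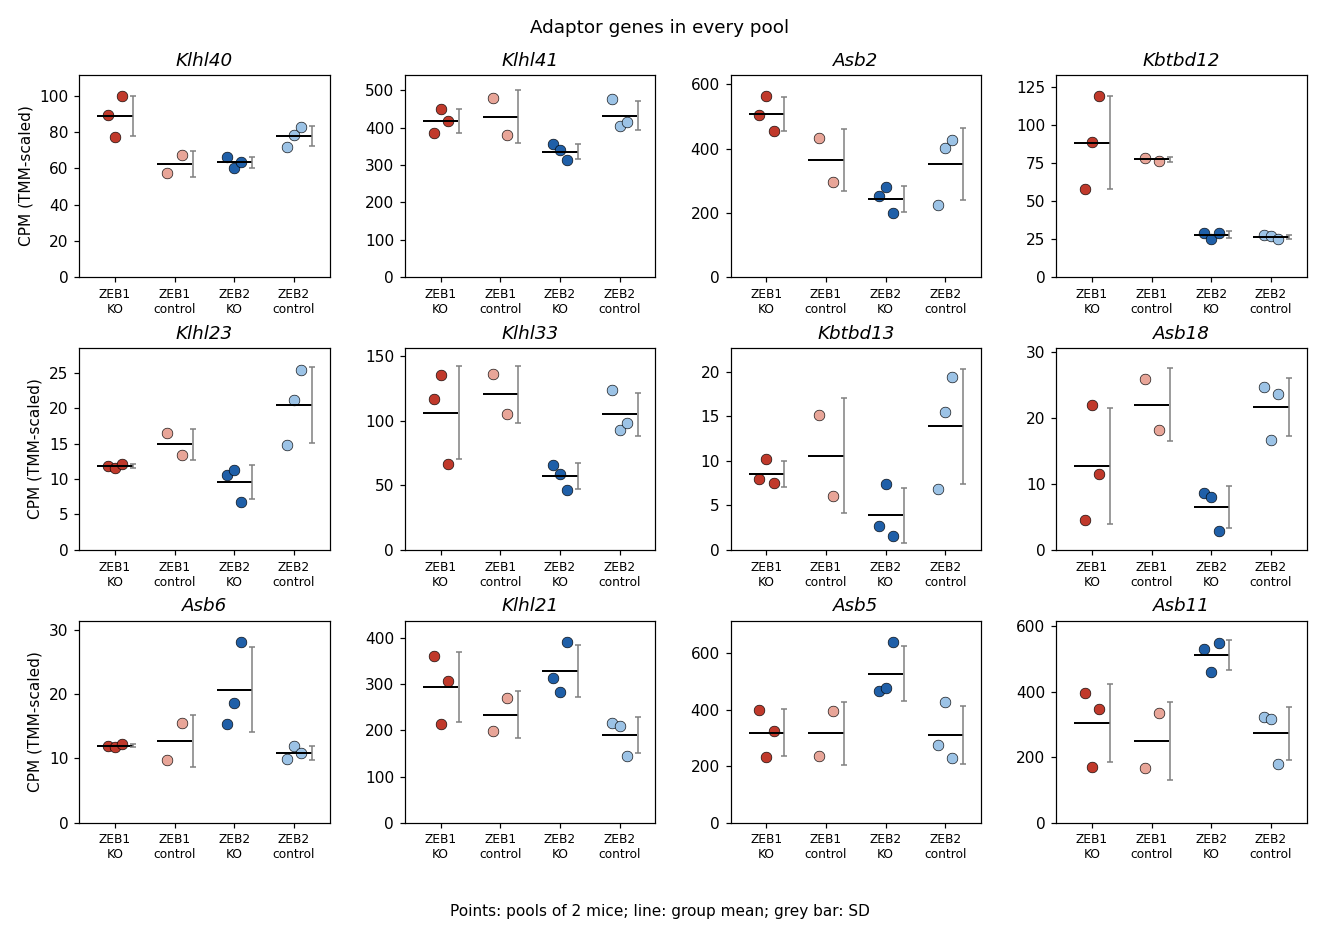
TMM-scaled CPM of 12 adaptor genes in every pool, each axis from 0, with ZEB1 knockout, ZEB1 control, ZEB2 knockout and ZEB2 control from left to right. Points are pools of 2 mice, the black line is the group mean and the grey bar the SD. Klhl40 is highest in ZEB1 knockouts at 77.4 to 99.6 CPM, Kbtbd12 separates the lines, and Asb11 and Asb5 are highest in ZEB2 knockouts.

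Further adaptor genes with an unadjusted p under 0.05 in this contrast were Klhl24 (0.47), Klhl12, an adaptor for SEC31 and Dishevelled (0.36), and Kbtbd2, which controls turnover of the PI3-kinase subunit p85α (0.76), on the higher side. Asb7 (-0.48), Klhl28 (-0.38), Klhl42 (-0.68), Klhl6 (-0.63), Klhl8 (-0.61), Klhl13 (-0.91) and Kbtbd3 (-0.80) were on the lower side. Kbtbd2 had overlapping groups and rested on 1 pool: it stood at 22.7, 32.6 and 61.8 CPM in ZEB2 knockouts, against 21.0, 27.5 and 20.5 CPM in ZEB2 controls, and the log2 fold change was 0.29 when that pool was left out. By family, 4 of 16 Asb genes were higher and 2 lower at that p, 4 and 11 of 31 Klhl genes, and 1 and 3 of 8 Kbtbd genes, to be read against 15.9% of all genes higher and 17.3% lower. The summed level was 3569, 3547 and 4065 CPM in ZEB2 knockouts, against 3239, 3533 and 3005 CPM in ZEB2 controls. Under TMM scaling that sum was higher in every knockout pool. As a share of all counts, without scaling, the adaptor genes took 0.334%, 0.333% and 0.368% in ZEB2 knockouts, against 0.334%, 0.343% and 0.310% in ZEB2 controls, and the groups overlapped. More adaptor genes were lower (33 of 55) than higher (22), where 46.6% of all genes tested were higher under TMM scaling. Of the 7 genes at 100 CPM or more, Asb5, Asb11, Klhl21 and Klhl24 were higher. The others, Klhl41 (-0.36), Asb2 (-0.53) and Klhl31 (-0.07), were lower.

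The remainder of the ligase machinery was described from lists of known components. In ZEB2 knockouts all 10 subunits of the COP9 signalosome, which removes NEDD8 from cullins, were higher under TMM scaling and 8 of 10 under upper-quartile or no scaling. Their median log2 fold change was 0.25 under TMM, 0.12 under upper-quartile and 0.13 under no scaling. The smallest p-values were those of the catalytic subunit Cops5 (0.57, SE 0.15) and Cops3 (0.45, SE 0.13). Of 14 cullin, RING and linker genes 10 were higher (median 0.19), and 9 under upper-quartile (median 0.064) or no scaling (median 0.068). Cul3, the scaffold of the Klhl and Kbtbd ligases, had 0.43 (SE 0.16), with 248, 257 and 318 CPM in ZEB2 knockouts against 205, 232 and 176 CPM in ZEB2 controls. Cul5, the scaffold of the Asb ligases, had -0.069 (SE 0.12), with 64.0, 64.6 and 67.7 CPM in ZEB2 knockouts against 65.3, 71.9 and 68.5 CPM in ZEB2 controls. The 17 neddylation genes and regulators divided into 9 higher and 8 lower (median 0.095, and -0.039 under upper-quartile scaling), with the RBX1 inhibitor Glmn at -1.10 (SE 0.28) and the muscle exchange factor Cand2 at -0.90 (SE 0.23). Other CUL3 adaptors divided into 13 higher and 15 lower (median -0.042), with Kctd6 at 0.84 and Kctd13 at 0.74, and other SOCS-box genes into 8 and 10 (median -0.095). Upper-quartile scaling gave 10 higher and 18 lower with a median of -0.177 for the CUL3 adaptors, and a median of -0.229 for the SOCS-box genes. No member of these lists passed in edgeR, which called 0% of all genes. DESeq2 called 3 genes higher and 0 lower in the cullin core, and 2 and 0 in the COP9 list. It called 2 and 3 among the neddylation genes, 5 and 2 among other CUL3 adaptors, and 1 and 2 among other SOCS-box genes. Over all genes DESeq2 called 9.08% higher and 7.7% lower. In ZEB1 knockouts the same lists had medians of 0.048 (COP9), 0.045 (cullin core), 0.0079 (neddylation), -0.0019 (other CUL3 adaptors), 0.039 (other SOCS-box genes) and 0.032 (substrates and partners). Without scaling of the totals each of these 6 medians was below 0.

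Other measures moved with the ZEB2 contrast. Fbxo32, which encodes the F-box atrophy adaptor atrogin-1, stood at 3300, 3330 and 5024 CPM in ZEB2 knockouts, against 1950, 2147 and 973 CPM in ZEB2 controls, and 9 of 10 atrophy genes were higher (median 1.23, against 0.10 in ZEB1 knockouts). Myofibre markers were higher for 6 of 10 genes, and for 4 of 10 under upper-quartile or no scaling. Under TMM scaling these markers summed to 119769 to 122483 CPM in ZEB2 knockouts, against 106539 to 111424 CPM in ZEB2 controls. Y-linked genes summed to 216, 256 and 378 CPM in ZEB2 knockouts, against 118, 250 and 0 CPM in ZEB2 controls. Tendon markers were lower for 8 of 8 genes, summing to 57.0 to 73.0 CPM in ZEB2 knockouts against 89.8 to 183 CPM in ZEB2 controls. Fibroblast markers were lower for 9 of 10 (1681 to 1849 CPM against 1848 to 2349 CPM), macrophage markers for 9 of 10 (107 to 118 CPM against 130.0 to 172 CPM), endothelial markers for 8 of 10 (505 to 572 CPM against 547 to 673 CPM) and smooth muscle markers for 9 of 9 (467 to 483 CPM against 596 to 671 CPM), each with ZEB2 knockouts before ZEB2 controls. Adipocyte and Schwann markers were lower for 8 of 8 genes each (200 to 378 CPM against 351 to 522 CPM, and 157 to 258 CPM against 241 to 479 CPM). No marker was at 0 in all libraries. With Y-linked expression as a covariate edgeR called 0 adaptor genes, as it did without the covariate. That count therefore cannot show what part the Y-linked difference had. The part of atrophy state and of these cell types in the adaptor values was not tested.

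Adaptor genes also differed between pools of mice that carried no Cre. Both ZEB1 control pools are an example, where Fbxo32 stood at 2690 CPM in ZEB1 control 3 and 802 CPM in ZEB1 control 2. Y-linked genes summed to 163 CPM in ZEB1 control 3 and 0 CPM in ZEB1 control 2. Asb11 stood at 335 CPM in ZEB1 control 3 and 166 CPM in ZEB1 control 2, Asb5 at 396 and 238 CPM, Klhl7 at 113 and 51.2 CPM, and Klhl30 at 94.0 and 43.5 CPM, in that order. Kbtbd13 stood at 6.05 CPM in ZEB1 control 3 and 15.1 CPM in ZEB1 control 2, and Kbtbd3 at 3.15 and 7.03 CPM. Control 3 minus control 2 had the sign of the ZEB2 knockout effect in 48 of 55 adaptor genes (87.3%), against 77.4% of all genes tested. Among the 25 adaptor genes with an unadjusted p under 0.05 in the ZEB2 contrast it had that sign in 24 (96.0%), against 91.3% of all genes so selected. The exception was Klhl40, with 67.4 CPM in ZEB1 control 3 and 57.1 CPM in ZEB1 control 2. These pools are not part of the ZEB2 contrast, and 1 pool against 1 pool has no replicate check.

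**Figure D4:**
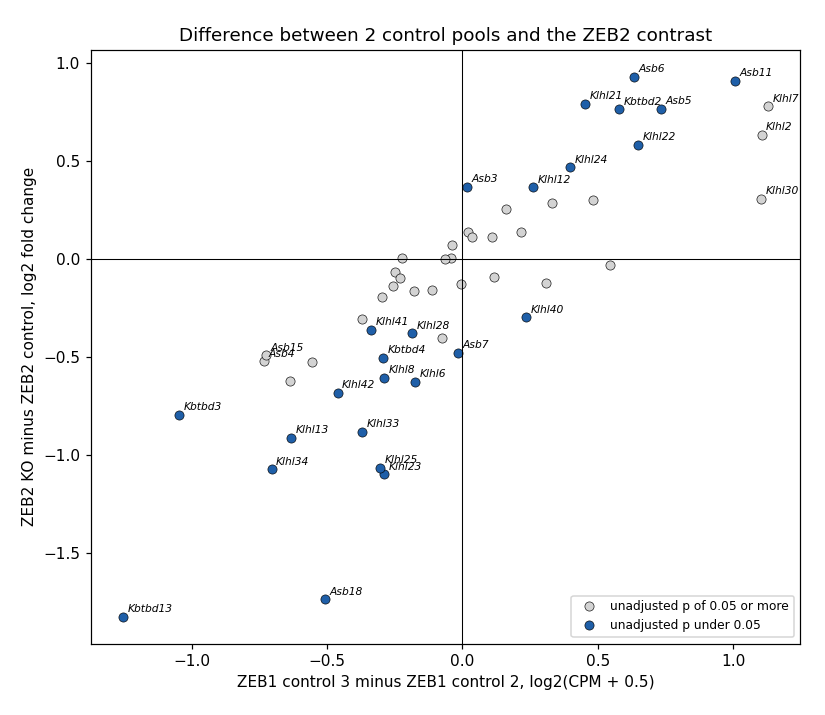
ZEB2 knockout log2 fold change (vertical) of the 55 tested adaptor genes beside the difference between both ZEB1 control pools, control 3 minus control 2, on the log2(CPM + 0.5) scale (horizontal). Blue points are the 25 genes with an unadjusted p under 0.05 in the ZEB2 contrast, of which 24 have the same sign on both axes and Klhl40 does not.

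The same pools stood low for several abundant adaptor genes. For Asb11 the 3 lowest of 11 pools were ZEB1 control 2 (166 CPM), ZEB1 knockout 2 (169.5 CPM) and ZEB2 control 3 (181 CPM). Asb5, Klhl7, Klhl22, Klhl24 and Klhl38, noted after their values were seen, had these same 3 pools lowest, and so did Fbxo32 (802, 1175 and 973 CPM in that order of pools). All 3 pools had a Y-linked sum of 0, as did ZEB1 knockout 1, where Asb11 stood at 397 CPM and Fbxo32 at 2456 CPM. Within groups the highest pool was at least 2 times the lowest for 9 adaptor genes in ZEB1 knockouts, 6 in ZEB1 controls, 5 in ZEB2 knockouts and 4 in ZEB2 controls. Kbtbd13, Asb18, Kbtbd8, Asb4, Asb15 and Klhl7 had the widest spread within groups. Klhl7, whose human counterpart is mutated in retinitis pigmentosa, stood at 90.2, 46.4 and 81.8 CPM in ZEB1 knockouts, against 51.2 and 113 CPM in ZEB1 controls, with 114, 126 and 190.0 CPM in ZEB2 knockouts, against 80.9, 113 and 57.2 CPM in ZEB2 controls. Kbtbd8 was low, at 0.747, 1.26 and 2.87 CPM in ZEB1 knockouts, against 2.07 and 1.15 CPM in ZEB1 controls, with 0.746, 1.31 and 0.929 CPM in ZEB2 knockouts, against 0.371, 1.77 and 2.48 CPM in ZEB2 controls. Asb15 stood at 63.1, 116 and 76.5 CPM in ZEB1 knockouts, against 96.3 and 58.1 CPM in ZEB1 controls, with 20.1, 29.2 and 40.3 CPM in ZEB2 knockouts, against 19.9, 59.1 and 47.2 CPM in ZEB2 controls. None of these had separated groups in the ZEB1 line. Asb4, an Asb gene also known from vessels, stood at 5.20, 22.6 and 13.3 CPM in ZEB1 knockouts, against 23.3 and 13.8 CPM in ZEB1 controls, with 9.56, 12.4 and 14.5 CPM in ZEB2 knockouts, against 15.8, 19.8 and 16.8 CPM in ZEB2 controls.

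**Figure D5:**
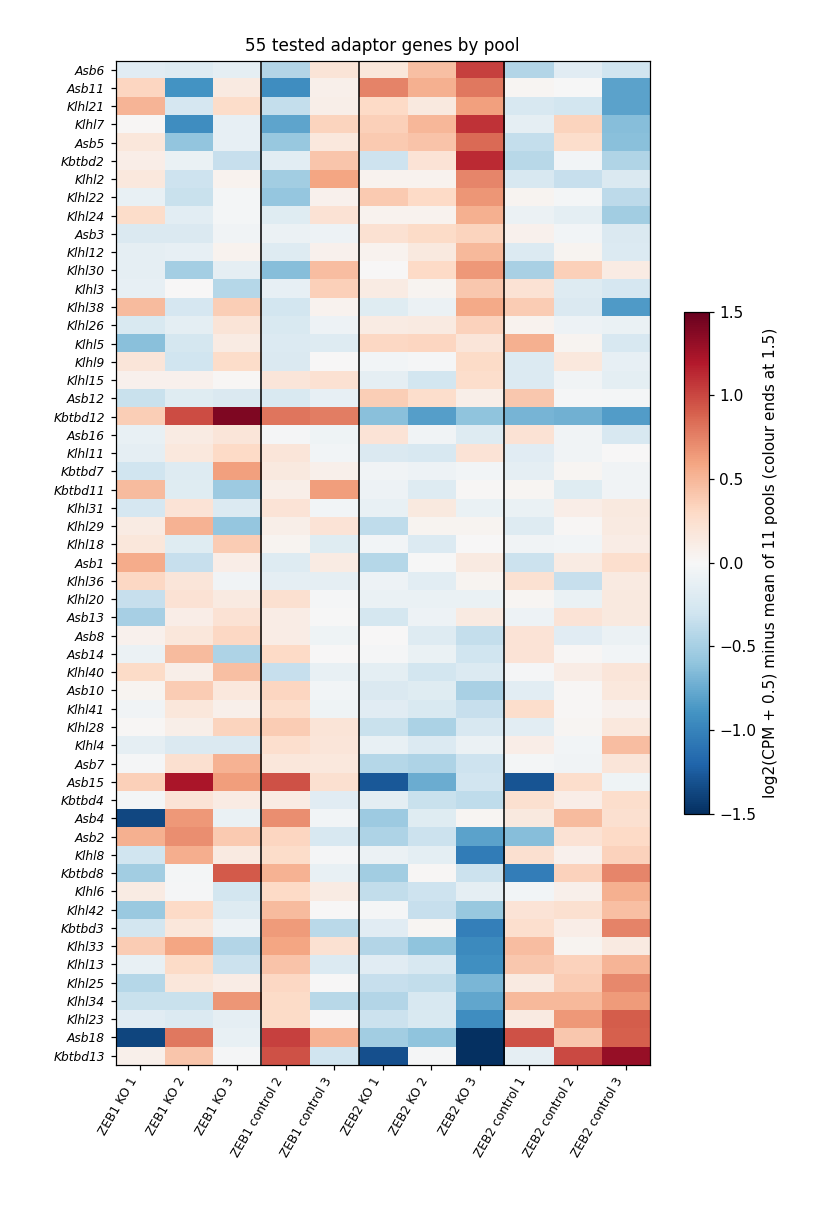
Heat map of the 55 tested adaptor genes (down, from the highest to the lowest ZEB2 fold change) in the 11 pools (across, by group), as log2(CPM + 0.5) minus the mean of the gene over all pools. Kbtbd12 is high in all 5 pools of the ZEB1 line and low in all 6 of the ZEB2 line, and ZEB1 control 2 differs from ZEB1 control 3 in the upper and lower genes.

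The knockout effects of both lines were compared as ZEB1 effect minus ZEB2 effect. The edgeR test called 0 adaptor genes (0% of all genes), and DESeq2 called 0 (0.11% of all genes). At an unadjusted p under 0.05 there were 8 adaptor genes (14.5%, against 9.26% of all genes), 6 with the higher effect in ZEB1 and 2 with the lower. Klhl40 had the smallest p. Its effect was 0.51 in the ZEB1 line and -0.30 in the ZEB2 line, a difference of 0.81 ± 0.20 (SE) and a 95% interval of 0.41 to 1.20 (edgeR, unadjusted p = 0.00197, adjusted p = 0.516). It was the only adaptor gene with separated groups in opposite directions, and the share of all genes with that pattern was not counted. Separation in a single contrast was frequent over all genes, at 7.19% higher and 6.69% lower in ZEB1 knockouts. In ZEB2 knockouts these shares were 21.3% and 22.1%. For Asb2 the effects were 0.48 and -0.53 (difference 1.01, SE 0.37), and for Kbtbd4 0.13 and -0.50 (0.64, SE 0.21). In the other direction Asb6 and Asb3 had an unadjusted p under 0.05, and Kbtbd2 came next and missed it (edgeR, unadjusted p = 0.0567). Asb6 had -0.08 and 0.93 (-1.0045, SE 0.34), Kbtbd2 -0.26 and 0.76 (-1.02, SE 0.48) and Asb3 -0.08 and 0.37 (-0.45, SE 0.20), each with the ZEB1 effect before the ZEB2 effect. Without ZEB2 knockout 3 the Kbtbd2 difference was -0.56. The ZEB1 values of Asb6, Kbtbd2 and Kbtbd4 changed sign when ZEB1 control 3 was left out.

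Between the floxed controls, without any Cre, 1 adaptor gene stood apart. Kbtbd12 (ENSMUSG00000033182.12, chromosome 6, 88545114 to 88637950, minus strand), a Kelch gene, was measured at 27.4, 26.9 and 24.8 CPM in ZEB2 controls, against 78.2 and 76.1 CPM in ZEB1 controls. The log2 fold change was -1.55 ± 0.23 (SE; edgeR adjusted p = 0.0783, DESeq2 adjusted p = 5.69e-06). The knockouts of each line lay with their controls, at 28.8, 25.0 and 29.1 CPM in ZEB2 knockouts and 57.9, 88.4 and 118.6 CPM in ZEB1 knockouts, so the lines did not overlap in any pool. Within its line Kbtbd12 had a fold change of 0.07 (SE 0.21) in ZEB2 knockouts and 0.19 (SE 0.23) in ZEB1 knockouts, on the log2 scale. Leaving out any 1 library kept the difference between controls at -1.58 to -1.51.

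Kbtbd12 was the single adaptor gene with an unadjusted p under 0.05 (1 of 55, against 3.32% of all genes) and the single one DESeq2 called (0.104% of all genes). The edgeR test called 0 of 55, against 0.0195% of all genes. In this contrast 25 adaptor genes were higher (16 without scaling of the totals, where the share of all genes higher was 39.4% rather than 52.4%). ZEB2 control pools lay wholly above ZEB1 control pools for 3 adaptor genes (8.96% of all genes) and wholly below for 5 (7.66% of all genes). Klhl40 had 0.32 (SE 0.15, and 0.18 without ZEB1 control 2), so its ZEB1 control level, 57.1 and 67.4 CPM, was also below the ZEB2 control level, 71.9, 78.5 and 82.7 CPM. Asb12 stood at 40.2, 30.03 and 29.8 CPM in ZEB2 controls, against 25.7 and 27.8 CPM in ZEB1 controls (0.32, SE 0.16, and 0.16 without ZEB2 control 1). Klhl23 had 0.46 (SE 0.25, and 0.27 without ZEB2 control 3) and overlapping groups. On the lower side, Asb15 had -0.88 (SE 0.45, and -0.49 without ZEB1 control 2), with 19.9, 59.1 and 47.2 CPM in ZEB2 controls against 96.3 and 58.1 CPM in ZEB1 controls, and Klhl15, a regulator of a PP2A subunit, stood at 3.62, 4.06 and 3.80 CPM in ZEB2 controls, against 4.90 and 5.04 CPM in ZEB1 controls (-0.38, SE 0.20). None of these 5 genes passed in edgeR or DESeq2.

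Further adaptor genes with a known role had overlapping groups in both lines. Klhl31 stood at 168, 231 and 174 CPM in ZEB1 knockouts, against 231 and 194 CPM in ZEB1 controls, with 186, 222 and 187 CPM in ZEB2 knockouts, against 187, 215 and 221 CPM in ZEB2 controls. Its fold changes were -0.16 (SE 0.18) and -0.07 (SE 0.16) on the log2 scale. Klhl9, whose human counterpart is mutated in a distal myopathy, had 0.18 (SE 0.20) in the ZEB1 line and 0.13 (SE 0.18) in the ZEB2 line, at 50.5 to 76.0 CPM over all pools. Klhl3, an adaptor for WNK kinases in kidney, was low at 2.06 to 4.08 CPM over all pools, with -0.36 (SE 0.27) and 0.30 (SE 0.24). The 95% interval of the Klhl31 effect was -0.50 to 0.19 in the ZEB1 line and -0.38 to 0.24 in the ZEB2 line.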

How the data were processed

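RNA-seq libraries of 11 muscle pools were used. The deposited table gives expected counts per gene as whole numbers, without normalization. The submitters' processing notes name STAR, RSEM, DESeq2 and GRCm38 and give no version. Counting annotation and strand setting are not stated there. Counts were used as deposited. In R 4.3.3, edgeR 4.0.16 filterByExpr (minimum count 10, minimum total 15) kept 15416 genes, scaled by TMM. One robust quasi-likelihood model with 4 group means over 11 libraries supplied every contrast. P-values were adjusted by Benjamini-Hochberg over all genes tested, with a threshold of 0.05. The SE was computed as |log2 fold change| over √F, and 95% intervals are normal ones. Levels are TMM-scaled CPM computed here, per kb of the union of GENCODE M21 exons where genes are compared, with gene coordinates from that annotation (GRCm38). Replicates differed by more than counting noise, and none was treated as a duplicate.

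The adaptor genes and companion lists were chosen with earlier results of these data known. Genes given pool by pool were the 5 with the smallest p per direction in each knockout contrast, the 3 per direction in the other contrasts, the 10 highest per kb, the 6 most variable within groups and those with a known muscle or disease role, and up to 3 per companion list. On simulated counts for the ZEB2 contrast, 36% of 200 genes changed by a log2 of 1 were called (15169 genes, 3 false calls), and 96.5% of 200 changed by 2 (15174 genes, 16 false calls). Alternatives were DESeq2 1.42.0, limma-voom 3.58.1, other scalings and filters, only the groups compared, a replicate block, a Y-linked covariate, no mitochondrial genes, and each library left out.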

Additional observations from a re-analysis of the deposited data

Results flagged for a closer look

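Klhl40 had knockout differences of opposite sign in the lines, with no overlap of pools in either. It was higher in every ZEB1 knockout pool than in both ZEB1 controls (log2 fold change 0.51) and lower in every ZEB2 knockout pool than in all ZEB2 controls (-0.30). The difference of effects was 0.81 with an SE of 0.20, and it did not pass over all genes (edgeR adjusted p = 0.516). The share of all genes with separated groups in opposite directions was not counted. With each library left out in turn the difference ran from 0.65 to 0.90. All ZEB2 control pools also lay above both ZEB1 control pools (log2 difference 0.32, SE 0.15, with 0.18 to 0.43 over left-out libraries), and the part of that control difference was not tested.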

How the results depend on the processing

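In the ZEB2 contrast edgeR called 0 adaptor genes, against 2 without a low-count filter, 14 with DESeq2 and 11 with only the groups compared (348, 2587 and 2077 of all genes). Between controls 0 became 1, Kbtbd12, without a low-count filter, with DESeq2, with only the groups compared or with the Y-linked covariate, and ran from 0 to 1 over left-out libraries (1 without ZEB1 knockout 1 or 3). Calls stayed at 0 in the ZEB1 contrast and the difference of effects under every alternative. Over left-out libraries the median ran from -0.0802 to -0.00116 in the ZEB1 contrast, -0.152 to -0.0533 in the ZEB2 contrast (highest without ZEB2 control 3), -0.0443 (without ZEB1 knockout 3) to 0.150 (without ZEB1 knockout 1) for the difference and -0.0684 to 0.0136 between controls. Upper-quartile scaling moved it to -0.260 in the ZEB2 contrast and 0.186 for the difference. Unscaled totals gave -0.101 (ZEB1), -0.249 (ZEB2), 0.154 (difference) and -0.104 (controls), and a summed level of 3656 CPM in ZEB1 controls against 3442. In the ZEB2 contrast these scalings moved the median of all genes to -0.177 and -0.173, and 17 rather than 22 adaptor genes were then higher. Without ZEB1 control 3 the ZEB1 values reversed to 0.28 for Asb6, 0.05 for Kbtbd2 and -0.02 for Kbtbd4; left-out ranges were -0.39 to 0.28, -0.54 to 0.05 and -0.02 to 0.27. The cause was not tested.

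Whether replicate numbers pair the samples could not be settled. Deviations of same-numbered pools correlated at 0.558 and 0.182 in the ZEB1 line and at 0.246, -0.0557 and -0.417 in the ZEB2 line. Deviations were taken from group means, so the 2 ZEB1 controls mirror each other, with -0.558 and -0.182 against the other-numbered control. With a replicate block 0 adaptor genes were called in each contrast, and Asb6 in ZEB1 knockouts became 0.04.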
